A study of Procambarus virginalis with 6 samples.

Results

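The 100 features described here are those most enriched in one kind of hemocyte of the marbled crayfish (Procambarus virginalis), the circulating blood cells of this clonal, all-female species. They were chosen from single-cell RNA sequencing of hemolymph drawn 28 dpi (days post injection) from 3 control animals that had received double-stranded RNA against GFP (Ctrl1, Ctrl2, Ctrl3) and 3 animals that had received double-stranded RNA against Dnmt1, here called knockdown or KD (KD1, KD2, KD3). The label of each library names hemolymph and hemocytes, and no further genotype or agent is given for either group. A cell was counted as an S cell when the UMIs (unique molecular identifiers, each standing for a captured transcript) of 4 features, WNGS01001312.118487_1, WNGS01021324.680489_28, WNGS01160430.1871674_2 and WNGS01004946.335539_1, made up at least 2% of its UMIs. With these 4 rule features taken out, each feature was given the ratio of its CPM (UMI counts scaled to a total of 1e+06) plus 10 in the summed S cells to its CPM plus 10 in the summed remaining cells, and the members are the 100 features with the highest median ratio over the 6 libraries, out of 6305 that had 50 UMIs or more and 72982 in all. The enrichment in S cells is therefore how the members were chosen and is given as a description, with no test. The comparison of KD with control animals did not enter the choice.

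Crayfish hemocytes are commonly sorted by their granules into hyaline, semigranular and granular cells. Semigranular cells (SGCs) take part in phagocytosis and encapsulation, and together with granular cells they store and release the components of the prophenoloxidase system, which deposits melanin on intruders. Dnmt1 is the methyltransferase that copies DNA methylation onto the new strand after replication. The study tied its SGC cluster to homologs of a crustacean hematopoietic factor, of Kazal-type protease inhibitors and of cathepsin L, but the deposited tables hold identifiers only and no source used here pairs these genes with features. The name SGC could thus not be checked by gene identity, and the cells are called by their rule. No role is given to any member for the same reason, and the level of Dnmt1 itself was not analysed here. Identifiers are written without the ending "_covsplit", which 86 of the 100 members carry, against 84.5% of the 6305 features. The part of an identifier before the point is called the prefix.

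After a filter of 100 to 2000 features per cell, 11521 cells remained, between 622 in Ctrl3 and 5318 in Ctrl1, with 188578 UMIs in KD2 to 2413375 in KD3. Of these, 6048 (52.5%) were S cells. Median depth ran from 228 UMIs per S cell in KD2 to 1439 in KD1, and outside the S cells from 211 to 1163, in the same libraries. Between 8.06% and 12.8% of the cells of a library lay within 1.5% to 2.5% of rule-feature UMIs, so that the class is a range of a score. A single rule feature, WNGS01001312.118487_1, supplied 69.9% to 92.3% of the rule-feature UMIs in a library. Ctrl1 shared no barcode with another library, and its barcodes open differently from the others. The remaining libraries shared 223 barcodes in various pairs, most often Ctrl3 with KD2 (113) and KD1 with KD2 (110). KD3 shared only 1, with KD2, so it stands with Ctrl1 apart from the other libraries in this. Shared barcodes made up 33.9% of the KD2 cells, 19.3% of the Ctrl3 cells and 13.1% of the KD1 cells. Results are therefore also given without Ctrl1 or without these barcodes where that matters.

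S cells made up 64.7% of Ctrl1 (exact 95% interval 63.4% to 66.0%), 52.1% of Ctrl2 (49.2% to 54.96%) and 34.1% of Ctrl3 (30.4% to 37.96%). The KD shares were 40.9% of KD1 (37.6% to 44.2%), 54.5% of KD2 (50.5% to 58.4%) and 37.1% of KD3 (35.35% to 38.9%). The intervals cover counting error only. The groups overlapped. Controls averaged 50.3% ± 15.4 and KD animals 44.2% ± 9.14 (SD, n = 3 each). KD animals were thus -6.14 percentage points from the controls (two-sided exact permutation test, p = 0.7, where the smallest p that 3 against 3 allow is 0.1). Without Ctrl1 the difference turned to 1.07 percentage points. With all animals and a minimum of 200 features per cell it was -0.0912. Under that minimum the share of KD3 was 52.5% and Ctrl1 kept 109 S cells.

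The members held 304206 of the 8120262 UMIs in the cells, or 3.75%. A single member, WNGS01135237.1642610_2, accounted for 44.0% of the member UMIs and had a UMI in 80.5% of all cells. The others were far sparser. UMIs per member ran from 64 to 133932 with a median of 544.5. Of the 100, 24 had fewer than 200 UMIs and 32 had 1000 or more. Only 5 members were among the 100 features with the most UMIs, and 51 were among the first 1000, so the list is not a list of the most abundant transcripts of these cells.

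In each library the members took a larger share of the UMIs in S cells than in the remaining cells, as the rule ensures. With the rule features left out, their share in S cells was 10.4% for Ctrl1, 4.71% for Ctrl2, 7.04% for Ctrl3, 6.11% for KD1, 5.39% for KD2 and 6.03% for KD3. In the remaining cells it was 2.71%, 1.002%, 1.42%, 1.17%, 1.29% and 1.17% in the same order. Ctrl1 was the highest in both kinds of cell and Ctrl2 the lowest. The ratio of the shares was steadier than the shares, at 3.84 in Ctrl1 to 5.21 in KD1. Without WNGS01135237.1642610_2 the other 99 members still took 2.87% (Ctrl2) to 4.63% (Ctrl1) of the UMIs in S cells, 3.21 to 3.94 times their share elsewhere. When every cell was thinned to 150 UMIs, to set libraries and cells at 1 depth, an S cell held on average 3.53 (Ctrl2) to 5.71 (Ctrl1) different members, with 5.26 for Ctrl3, 5.01 for KD1, 4.43 for KD2 and 4.22 for KD3, against 1.22 to 2.86 in the remaining cells. The unthinned means were 6.71 to 22.7 and 2.88 to 8.53. In Ctrl1 4 and in KD2 28 S cells were too shallow to be thinned.

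**Figure D1:**
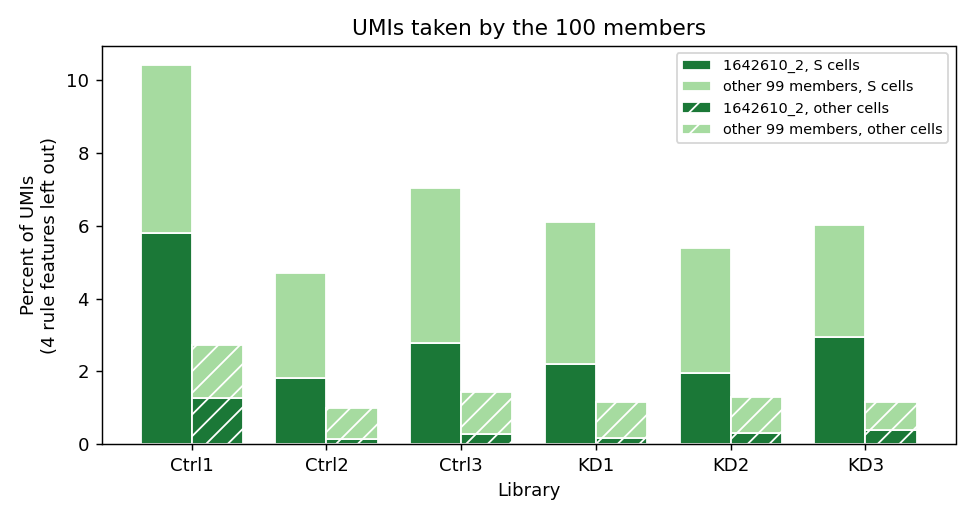
Percent of UMIs taken by member WNGS01135237.1642610_2 (dark) and by the other 99 members (light) in S cells (plain bars) and in the remaining cells (hatched bars) of each library, with the 4 rule features left out of the total. The members' share in S cells runs from 4.71% in Ctrl2 to 10.4% in Ctrl1, and WNGS01135237.1642610_2 is the larger part only in Ctrl1.

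The ratios fell off quickly from the head of the list. The first member had a median ratio of 15.7, the 10th 4.68, the 25th 3.40, the 50th 2.73 and the 100th 2.29, against a median of 1.17 over all 6305 features. The S cells themselves held few UMIs of 6 features that define another class, G cells (1.63% to 3.47%), while the remaining cells held 10.6% (KD1) to 41.6% (KD3), and 78.3% of the 6305 features had a median ratio above 1. The ratios without the cells of other classes are given with those classes. Of the members, 90 had a ratio over 1 in all 6 libraries, 9 in 5 and 1 in 4, and 31 had a ratio over 2 in all 6. The end of the list is not a natural border: the last 2 inside it, WNGS01113158.1462034_0 and WNGS01164437.2133228_3, had median ratios of 2.288 and 2.287, and the first 2 outside it, WNGS01165751.2420741_0 and WNGS01001312.118182_1, had 2.284 and 2.283. With a pseudocount of 1 or 50 CPM in place of 10, 62 and 53 of the 100 stayed in the list, and with every cell thinned to 150 UMIs 40 did. Of the first 25 members, between 21 and all 25 stayed under each of the 18 other settings run.

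**Figure D2:**
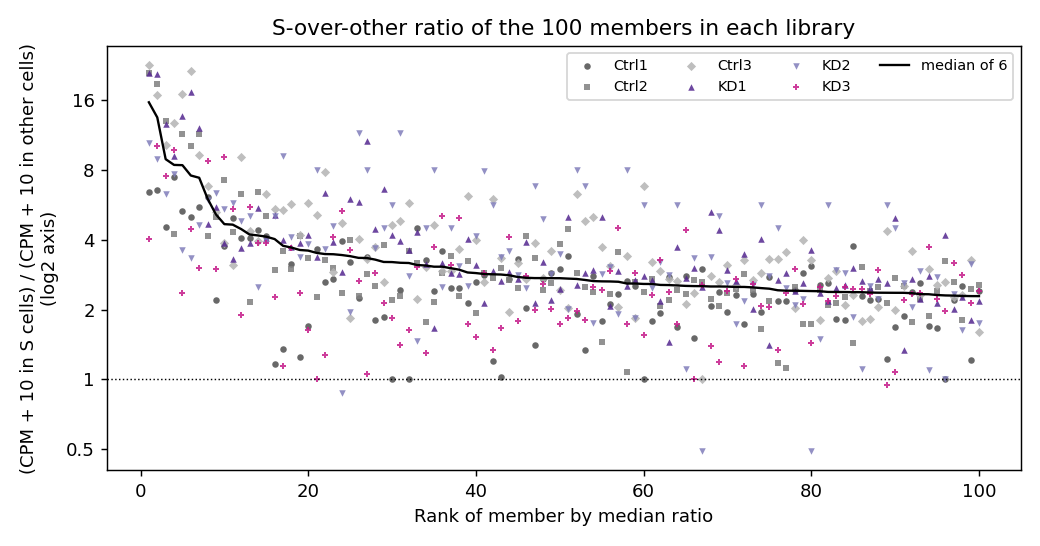
Ratio of CPM + 10 in S cells to CPM + 10 in the remaining cells for each member (log2 axis), ordered by the median ratio, with 1 symbol per library and the median as a line. The median falls from 15.7 to 2.29, and the dotted line marks a ratio of 1.

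At the head of the list stood WNGS01163555.2049291_0, which had 1705 UMIs in S cells and 178 outside them. Its level in control S cells was 776, 351 and 897 CPM (Ctrl1 to Ctrl3) and in KD S cells 487, 527 and 176 CPM (KD1 to KD3), an order kept for all values given by group. Outside the S cells it lay between 7.12 CPM (Ctrl2) and 113 CPM (Ctrl1), so that its ratio was high in Ctrl2, Ctrl3 and KD1 (20.9 to 22.7) and lowest in KD3 (4.02). Thinned to 150 UMIs, 9.37% of the S cells of Ctrl1 and 2.91% of those of KD3 had a UMI of it, against 2.34% and 0.721% of the remaining cells. Another member on the same prefix, WNGS01163555.2049121_10, stood 11th and was more even, with 2127, 2949 and 3464 CPM in the control S cells and 2627, 1475 and 1799 CPM for KD.

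The second member, WNGS01001312.117977_1, had 885, 445 and 1120 CPM in the S cells of Ctrl1, Ctrl2 and Ctrl3 and 829, 819 and 401 CPM in those of KD1, KD2 and KD3. Outside them it lay between 14.2 CPM (Ctrl2) and 127 CPM (Ctrl1). Its prefix also holds the rule feature WNGS01001312.118487_1 and 1 of the G features, and 2 further members, WNGS01001312.117857_1 and WNGS01001312.117872_0. Of the members, the level profile of WNGS01163555.2049291_0 over the 6 libraries was most like that of WNGS01021324.682872_2 (Pearson r = 0.93 of log2 CPM + 10 in S cells, a description over 6 libraries, whose depth all features share) and of WNGS01001312.117977_1 (r = 0.93). The member WNGS01021324.682872_2 (on the prefix of the rule feature WNGS01021324.680489_28) had 935, 260 and 1083 CPM in the control S cells and 1000, 784 and 110 CPM in those of KD1, KD2 and KD3. All of these members were lowest in KD3 and second lowest in Ctrl2.

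By amount, WNGS01135237.1642610_2 (number 3 by ratio) had no equal. It took 5.80% of the UMIs in the S cells of Ctrl1, with 1.83% for Ctrl2, 2.79% for Ctrl3, 2.20% for KD1, 1.95% for KD2 and 2.95% for KD3. Outside the S cells its share was 1.28% in Ctrl1 and 0.140% to 0.389% in the other libraries, the lowest in Ctrl2. In thinned cells 57.9% (Ctrl2) to 95.2% (Ctrl1) of the S cells and 12.2% (Ctrl2) to 72.4% (Ctrl1) of the remaining cells had a UMI of it, from 84.8% and 98.5%, and 42.6% and 88.6%, before thinning. How much of the UMIs outside the S cells came from free RNA was not tested. The next by amount among the first 10 was WNGS01167372.2520798_0, with 4339, 2137 and 3960 CPM in the control S cells and 2459, 4225 and 3914 CPM for KD. This member was the most even of the first 10 outside the S cells, at 437 CPM in KD3 to 704 CPM in KD2, and its ratio stayed between 4.14 and 8.78.

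The remaining members of the first 10 were sparser and varied more. The member WNGS01092210.1249897_2 had 152, 32.2 and 223 CPM in the control S cells and 94.5, 304 and 183 CPM for KD, against 0 in the remaining cells of Ctrl2 and at most 31.1 CPM (KD2). Only 468 UMIs stood behind it. The member WNGS01004047.268609_1 had 324, 362 and 1352 CPM in the control S cells and 1028, 1135 and 133 CPM for KD. The member WNGS01000690.81364_0 was low in Ctrl1 and KD3 (68.6 and 88.9 CPM) and lay between 714 and 1429 CPM in the S cells of the other 4 libraries. Low in Ctrl1 alone was WNGS01165318.2284460_3, at 86.0 CPM against 542 to 1375 CPM in the S cells of the others. These 2 libraries with few UMIs of WNGS01000690.81364_0 include a control and a KD animal, so that the contrast does not follow the groups.

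Across libraries the members had a wider range at the median than all features, in sets not matched for level. The range of log2(CPM + 10) in S cells had a median of 2.28 over the members and 1.77 over all 6305 features. The added 10 CPM narrows the range of sparse features. Of the members, 44 were lowest in KD3 and 21 in Ctrl1, where 29.0% and 39.5% of the 6305 features were lowest, and 31 were highest in Ctrl3, where 18.8% of the features were. The widest range belonged to WNGS01165218.2281402_0 (6.76), which had 7684, 902 and 797 CPM in the control S cells and 3557, 737 and 61.1 CPM for KD. It was followed by WNGS01105560.1355539_2 (4.65), with 152, 34.5 and 141 CPM for the controls and 98.02, 199 and 1104 CPM for KD. The former was lowest in KD3 and the latter highest there. The narrowest ranges were those of WNGS01005680.405702_0 (0.52), at 35.1 to 54.6 CPM, and WNGS01169498.2667858_0 (0.69), at 182 to 300 CPM. On the same prefix as WNGS01005680.405702_0, WNGS01005680.405237_29 was among the 4 members with the most UMIs in S cells, with 2896, 3823 and 2303 CPM for the controls and 2238, 1451 and 867 CPM for KD.

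The members lay on 58 prefixes. Of these, 25 held several members, and 67 members were on such a prefix. Most were on WNGS01164437, with 6 of its 174 features that had 50 UMIs or more, followed by WNGS01000690 with 5 of 87, WNGS01113158 with 5 of 250 and WNGS01160430 with 5 of 168. Over all 6305 features the members are 1.59%. The 6 on WNGS01164437 were WNGS01164437.2133712_0, WNGS01164437.2147413, WNGS01164437.2184491, WNGS01164437.2133232_0, WNGS01164437.2133236_0 and WNGS01164437.2133228_3. Those on WNGS01000690 were WNGS01000690.81364_0, WNGS01000690.81365_1, WNGS01000690.88729_1, WNGS01000690.81404_9 and WNGS01000690.81140_2. The prefix WNGS01160430, which also holds the rule feature WNGS01160430.1871674_2, had WNGS01160430.1880737_3, WNGS01160430.1884005_0, WNGS01160430.1886149_0, WNGS01160430.1871879_0 and WNGS01160430.1884793_0, and WNGS01113158 had WNGS01113158.1483676_0, WNGS01113158.1461753_0, WNGS01113158.1461762, WNGS01113158.1462335 and WNGS01113158.1462034_0. Of all members, 13 stood directly beside another member of the same prefix in the deposited order of the 6305 features, a count with no value for other features beside it. The sources used here do not say whether such neighbours are pieces of 1 gene or could share reads.

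Within S cells 3 pairs of neighbouring members were looked at, which were chosen after seeing the list. The members WNGS01000690.81364_0 and WNGS01000690.81365_1 were both highest in KD1. The latter had 387, 861 and 1671 CPM in the control S cells and 2221, 609 and 146 CPM for KD. Of the S cells with a UMI of WNGS01000690.81364_0, 75.5% in Ctrl2, 80.6% in Ctrl3 and 90.8% in KD1 also had a UMI of WNGS01000690.81365_1, against 34.0%, 39.3% and 48.3% of those without one. In Ctrl1 the shares were 8.96% and 9.78%, in KD2 22.2% and 10.6% and in KD3 10.2% and 7.09%. Deeper cells are more likely to hold both, and the part of depth in these shares was not tested. The 3 libraries with the wide gaps are those with the deepest S cells. A gap also depends on how often the second feature was found, so the gaps do not rank the pairs. For WNGS01164437.2133228_3 and WNGS01164437.2133232_0 the shares were 3.65% and 2.37% in Ctrl1, 15.8% and 8.38% in Ctrl2 and 20.0% and 8.98% in Ctrl3. In the KD animals they were 23.9% and 14.97% in KD1, 0% and 1.796% in KD2 and 9.52% and 3.33% in KD3. For WNGS01169498.2636772_0 and WNGS01169498.2636773_1 they were 29.7% and 2.90% in Ctrl2, 16.7% and 3.88% in Ctrl3 and 22.7% and 4.44% in KD1, from 11, 1 and 5 S cells with both. KD2 and KD3 had 1 S cell with both each, and Ctrl1 had none.

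The share of member UMIs rose with the share of rule-feature UMIs below the cut as well as above it. The rise across the cut follows from how the members were chosen. The steps on either side of it come from the same cells and are a description with no test. Among cells of no other class with no rule-feature UMI the members took 0.677% (Ctrl2) to 1.89% (Ctrl1) of the UMIs, in cells at 1% to under 2% they took 1.61% (Ctrl2) to 5.59% (Ctrl1), and in cells at 8% or more 6.95% (Ctrl2) to 12.6% (Ctrl1). In each library every step was a rise. Without WNGS01135237.1642610_2 the rise continued to the last step in Ctrl2 (3.61%), Ctrl3 (5.45%), KD1 (4.29%) and KD3 (3.96%), whereas in Ctrl1 the other 99 members were highest at 2% to under 4% (4.95%) and at 4.04% in the last step. KD2 went from 3.34% through 3.30% to 4.0% over the 3 steps above the cut. Median depth was also higher in the last step than in the first in each library, going from 538.5 to 1156 UMIs per cell in Ctrl3 and from 1008 to 1772 in KD1, and its part in the rise was not tested.

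**Figure D3:**
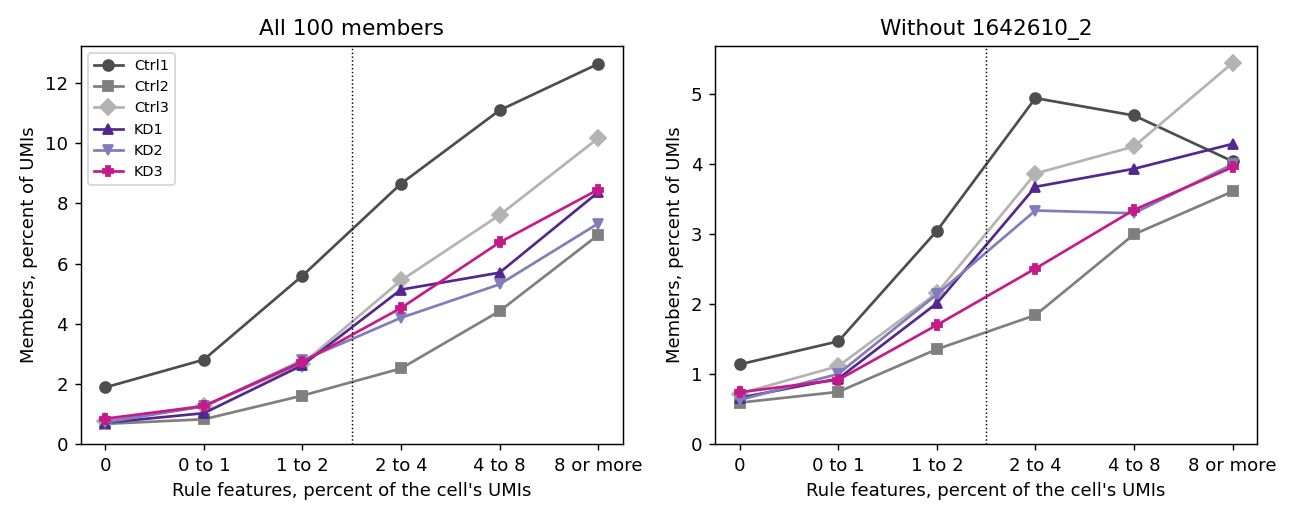
Percent of UMIs taken by all 100 members (left) and by the 99 members without WNGS01135237.1642610_2 (right), against the share of rule-feature UMIs in the cell, for the cells of no other class in each library. The dotted line marks the cut of 2%, and the rise across it follows from how the members were chosen. On the left every library rises at each step, up to 6.95% to 12.6%.

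Cells outside the S class were divided by other feature sets into G cells (6 features with at least 10% of UMIs), H cells (2 features with at least 1%), C cells (2 features with at least 1%) and the rest. These are ranges of a score, taken from earlier clusterings of the same data, and carry no cell type name. With the features that set these classes left out, the members took 4.15% of the UMIs of G cells in Ctrl1, with 1.84% for Ctrl2, 2.88% for Ctrl3, 1.31% for KD1, 2.49% for KD2 and 3.002% for KD3. In H cells they took 2.05% in Ctrl1 and 0.389% to 0.829% in Ctrl2, Ctrl3, KD1 and KD2, and KD3 had only 1 H cell. In the rest they took 3.94% in Ctrl1 and 1.03% to 1.67% in the other libraries. H cells were thus below the rest in all 5 libraries that had them, and G cells above the rest in 5 libraries and below it in KD1. C cells were scored in Ctrl1, where 113 cells held 4.75%. The G, H and C cells were then left out of the comparison, a choice made after seeing the data. All 100 members kept a median ratio over 1, where 57.7% of all features had one. The rest had already entered the choice of the members, so this is largely fixed by the rule. A ratio over 2 was kept by 74 members, without a share over all features, and 67 stayed among the first 100. The median ratio of the members went from 2.73 to 2.37 while that of all features went from 1.17 to 1.04.

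Member by member, the level in G cells split the list. On the log2(CPM + 10) scale, as the median over 6 libraries, G cells were more than 1 below the rest for 28 members and more than 1 above it for 14, where 14.4% and 3.60% of the 6305 features were. The median was -0.30, against -0.33 over all features. The largest differences upward were 2.95 for WNGS01004374.276017_1 and 2.62 for WNGS01005978.430727_7, and the largest downward were -4.43 for WNGS01165218.2281402_0 and -3.16 for WNGS01000690.81365_1. In S cells WNGS01004374.276017_1 had 882, 484 and 432 CPM for the controls and 495, 433 and 879 CPM for KD. The most abundant members were on both sides, with WNGS01135237.1642610_2 at 1.16, WNGS01005680.405237_29 at 2.05 and WNGS01167372.2520798_0 at -0.10. In H cells, as the median over 5 libraries, 47 members were more than 1 below the rest and 2 more than 1 above it, where 30.9% and 8.01% of the features were, and the median was -0.96 against -0.45. The 2 above were WNGS01063839.1044181 (1.71) and WNGS01009202.547163_2 (1.13), and the lowest were WNGS01042707.846243 (-4.61) and WNGS01165318.2284460_3 (-4.24). Many of these differences rest on few H cells, 10 in Ctrl3 and 13 in Ctrl2, and have no test.

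**Figure D4:**
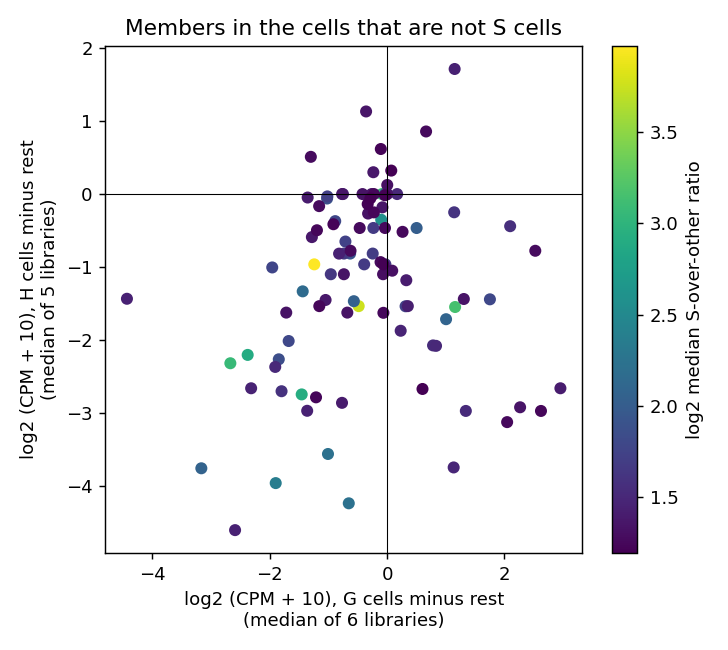
Difference in log2(CPM + 10) between G cells and the rest (x axis, median of 6 libraries) and between H cells and the rest (y axis, median of 5 libraries), 1 point per member, coloured by its log2 median S-over-other ratio. Of the members, 58 lie below 0 on both axes, 14 lie more than 1 to the right and 2 more than 1 above.

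Whether the members differ between KD and control animals was tested on UMI counts summed per animal over the S cells (edgeR quasi-likelihood test, Benjamini-Hochberg adjustment over all features tested). No feature passed an adjusted p of 0.05 among 4230 tested (0%), and 72 (1.70%) had an unadjusted p under 0.05. DESeq2 called none either, with 97 under 0.05 unadjusted. All 100 members were tested, none passed, and 1 had an unadjusted p under 0.05. Fold changes ran from -2.36 to 2.40 on the log2 scale, with 38 members higher and 62 lower in the KD animals and a median of -0.11, against -0.0081 over all features, of which 50.4% were lower. The direction changed without Ctrl1: then the median of the members was 0.21, with 69 higher and 31 lower, where 50.6% of all features were lower. With a minimum of 200 features per cell the median was 0.15. In Ctrl2, Ctrl3, KD1 and KD2 alone, without Ctrl1 and KD3, it was 0.14. There 59 members were higher and 41 lower, where 52.1% of all features were lower. Summed over the members, their share of the UMIs in S cells averaged 7.39% ± 2.87 over the controls and 5.84% ± 0.395 over the KD animals (SD, n = 3 each). The difference of -1.55 percentage points became -0.0298 without Ctrl1. Leaving shared barcodes out lowered the share in Ctrl3 to 5.73%, in KD1 to 5.57% and in KD2 to 4.64%, and left the difference at -1.53.

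**Figure D5:**
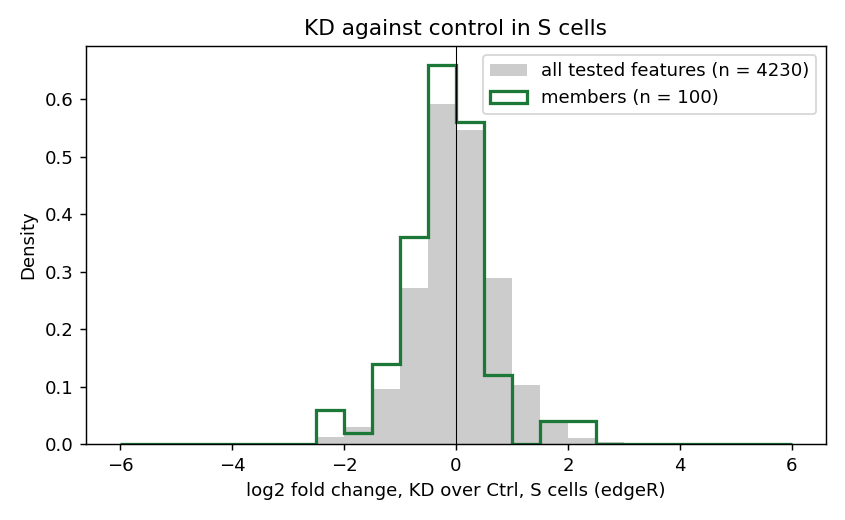
Density of log2 fold changes (KD over Ctrl, edgeR, S cells summed per animal) for all 4230 features tested (grey) and for the 100 members (green outline). The members have a median of -0.11 against -0.0081 for all features, and neither set holds a feature past the threshold.

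In CPM, which leaves the rule features out, 6 members had all 3 KD animals below all 3 controls in S cells and none had them above. Of 4226 features, 1.99% and 1.35% did. The 2 of these with the largest fall in the fit are named, neither past the threshold. The first, WNGS01167788.2549894_0, had 140, 63.3 and 41.0 CPM in the control S cells and 32.1, 0 and 26.4 CPM for KD, from 137 UMIs in Ctrl1 and 0 in KD2. Its log2 fold change was -2.13 (SE 0.99, unadjusted p = 0.0564 and adjusted p = 0.999, edgeR) and was -0.52 without Ctrl1. The second, WNGS01005978.430727_7, had 182, 383 and 182 CPM for the controls and 69.5, 93.6 and 50.01 CPM in KD, with a log2 fold change of -1.90 (SE 0.56, unadjusted p = 0.00676 and adjusted p = 0.999, edgeR). It was lower in 3 of 3 KD animals also outside the S cells, with 77.6, 153 and 95.5 CPM for the controls and 22.0, 31.1 and 15.8 CPM for KD. Leaving out each animal in turn kept its log2 fold change between -2.20 and -1.59. This member is also among the pair with the largest upward difference between G cells and the rest.

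Over all cells, where a smaller share of a cell type and less RNA per cell cannot be told apart, no feature passed among 7024 (0%), with 120 (1.71%) under an unadjusted p of 0.05 by edgeR, 2 of them members. DESeq2 called none, with 163 under 0.05. The members were 31 higher and 69 lower in KD, where 52.7% of all features were lower. Their median was -0.28 against -0.038 over all features, and was 0.27 without Ctrl1. In CPM, 7 members had all KD animals below all controls (1.71% of features did) and none above (0.826%). Outside the S cells none of 4131 features passed (0%), with 63 (1.53%) under 0.05 unadjusted, 2 of them members, and none by DESeq2, with 84 under 0.05. There 72 of the 100 members had enough counts to be tested, and the 28 others were not. Of the 72, 29 were higher and 43 lower, where 51.3% of all features were lower. Their median was -0.21 against -0.023 over all features, and was 0.50 without Ctrl1. In CPM, 4 of the 72 had all KD animals below all controls (1.26% of features did) and none above (0.678%). The 6 G features took 27.4%, 16.3% and 15.03% of the UMIs outside the S cells for the controls and 10.6%, 26.9% and 41.6% for KD, and their part in these values was not tested.

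The ratio of S cells to the remaining cells was compared between the groups by an interaction term. It was called for 3 of 5680 features (0.0528%, edgeR), all 3 lower in the KD animals, and 1 of them was a member, WNGS01164437.2133712_0 (number 5 by ratio). In S cells it had 702, 391 and 2148 CPM for the controls and 920, 1603 and 443 CPM for KD. Outside the S cells it had 124, 24.9 and 117 CPM for the controls and 57.6, 435 and 183 CPM for KD. Its ratio was thus 5.31, 11.5 and 17.0 for the controls and 13.8, 3.63 and 2.35 in the KD animals, and the groups overlapped through KD1. The interaction was -1.30 on the log2 scale (SE 0.30, adjusted p = 0.0364, edgeR). Its SE and p rest largely on a variance shared over features, not on the spread of this ratio between animals. The interaction was lost under 12 of 16 other settings, DESeq2 among them. It fell short of the threshold without Ctrl2 (-1.12), without Ctrl3 (-0.95), without KD2 (-1.17) and without KD3 (-0.34), and stayed past it without Ctrl1 (-1.90) and without KD1 (-2.22). Among the remaining cells of KD3 were 301 of its UMIs. Over all members 52 had a higher and 48 a lower ratio in KD, where 53.3% of all features had a lower one. The median of the members was 0.028 against -0.037 over all features. Of the members, 4 had an unadjusted p under 0.05 (edgeR), where 2.68% of the features did. The ratios of the 3 KD animals lay below those of the 3 controls for 1 member (3.19% of features) and above them for 3 (4.0%).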

How the data were processed

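Hemocytes of 3 control and 3 Dnmt1 KD animals were processed on the 10X Genomics platform (v3.1 chemistry per the labels). Read alignment and UMI counting were done by the authors, and the deposited matrices hold whole, unnormalized UMI counts of 72982 features in called cells. The header of the matrices names Cell Ranger 7.0.0 and the submitters' processing notes Cell Ranger 4.0.0 and Seurat 4.3.0. The other deposited tables list features and barcodes. No column of another sample was found. The build is not given in the sources used here, and closely related features could share reads.

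Cells with 100 to 2000 features were kept, and no doublet caller or mitochondrial filter was applied. Members and feature sets were chosen with earlier results of these data known. Counts were summed per animal and tested with edgeR 4.0.16 (TMM, filterByExpr, Benjamini-Hochberg, threshold 0.05) in R 4.3.3, and with DESeq2 1.42.0 as an alternative. The 4 rule features stayed in the fits over S cells, all cells and the remaining cells. They were left out of the interaction, of CPM and of the shares of features whose groups do not overlap. The study states a test over cells; sums over animals were used because cells are not replicates. The SE of a log2 fold change is its size divided by the square root of F. The S-cell share was compared by an exact permutation test in scipy 1.17.1. The fits were also run on simulated counts with a dispersion of 0.05 and log2 changes of size 2. There 95.1% of the changed features were recovered in S cells, 96.3% in all cells, 94.8% in the remaining cells and 41.2% by the interaction. The simulated 0.05 is a dispersion, and the values from the data are its square root. In the data, S cells varied more between animals than the simulated counts (square root of the dispersion 0.53). The interaction fit varied less than the simulated counts (square root of the dispersion 0.16). The simulated setting thus differs from the data, and does not tell how many changes the KD comparisons or the interaction would miss. Per library, kept cells held 188578 to 2413375 UMIs, and intervals for shares of cells are exact (Clopper-Pearson, 95%).

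Members named were the 10 with the highest ratio, the 4 with the most UMIs in S cells, 2 on either side of the end of the list, the 2 with the widest and the narrowest range over libraries, the 2 highest and 2 lowest in G and in H cells, the 2 whose profile was most like the first member, those of the 4 prefixes with most members, and up to 2 that rose and 2 that fell in the KD comparison of S cells with groups that do not overlap. Further, WNGS01163555.2049121_10, WNGS01001312.117857_1, WNGS01001312.117872_0, WNGS01169498.2636772_0 and WNGS01169498.2636773_1 were named after their values were seen. Alternatives covered the pseudocount, UMI minimum, cut, feature minimum, thinning to 150 UMIs, shared barcodes, normalization, the count filter, a block on replicate number, and each animal left out in turn, and the comparison without G, H and C cells was added after seeing the data.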

Additional observations from a re-analysis of the deposited data

Results flagged for a closer look

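For WNGS01164437.2133712_0 the ratio of S cells to the remaining cells was called by the edgeR interaction term (adjusted p = 0.0364 over 5680 features, log2 difference -1.30). This p rests largely on a variance shared over features and does not measure the spread of the ratio between animals. For Ctrl1 to Ctrl3 the ratio was 5.31, 11.5 and 17.0, and for KD1 to KD3 it was 13.8, 3.63 and 2.35, so that the groups overlapped through KD1. The call was kept under 4 of 16 other settings. Without KD3, which held 301 of its UMIs outside the S cells, the difference was -0.34, and with the shared barcodes left out it was -0.98 (adjusted p = 0.913). Without Ctrl1 it was -1.90 (adjusted p = 4.3e-05) and without KD1 it was -2.22 (adjusted p = 1.9e-07), and over all settings the adjusted p ranged from 1.9e-07 to 1.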

How the results depend on the processing

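The comparisons of KD with control animals in S cells, all cells and the remaining cells gave no call except without a filter on low counts, where 14, 14 and 4 features were called, none of them a member. The 3 calls of the S-over-other comparison became 0 with DESeq2, 1 without the count filter, 1 with shared barcodes left out and 0 in cells thinned to 150 UMIs, and were 1 to 3 when each animal was left out. The list kept 62 members with a pseudocount of 1 CPM, 53 with 50 CPM, 61 with S cells at 4% of UMIs and 40 in thinned cells, and 79 to 88 when each animal was left out. The difference in the share of S cells reversed without Ctrl1 (1.07 percentage points). It also reversed in Ctrl2, Ctrl3, KD1 and KD2 alone (4.59), where both Ctrl1 and KD3 are left out. With a minimum of 200 features per cell it was -0.0912. When each animal was left out, the difference ranged from -14.2 to 1.07. The difference in the members' share of UMIs in S cells ranged from -2.89 to -0.0298, the latter without Ctrl1. The median log2 fold change of the members ranged from -0.41 to 0.21 in S cells, from -0.56 to 0.27 in all cells and from -0.74 to 0.50 in the remaining cells. The cause was not tested. Whether the replicate numbers pair the animals is not known. The correlations of the deviations of same-numbered animals were -0.20, 0.13 and 0.043, and with 3 animals per group they cannot decide it. With the replicate block the counts of calls were 0 in S cells, 0 in all cells, 0 in the remaining cells and 3 in the S-over-other comparison, as without it.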
